A study of Mus musculus with 12 samples.

Results

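Mouse embryonic stem cells without Mphosph8 were set directly against cells without Tasor, over all genes. The 2 genes encode subunits of the same complex, so the comparison asked where losing the subunits MPP8 and TASOR gave different transcript levels. It used 6 of the 12 libraries of the series, 3 from Mphosph8-null cells (MP8) and 3 from Tasor-null cells (Tas). The tables of both groups were joined by gene identifier, and 16840 of 57180 listed genes had enough reads to be tested. The study sequenced RNA of 4 genotypes of C57BL/6 embryonic stem cells. MP8 and Tas each lacked the named gene, Pph lacked Pphln1, the gene of the remaining subunit, and WT was the unmodified genotype, with 3 libraries each. All 12 libraries shared 1 fit, so Pph and WT entered the filter, the scaling and the estimate of spread, and WT also shows on which side of it MP8 and Tas lay. How the null cells were derived is not given in the sources used here, nor whether the 3 libraries of a genotype are independent clones or cultures, so each null group may stand for 1 clone. P-values therefore measure only the spread between these libraries, which may be technical, and a difference between 2 clones and a difference between 2 genotypes cannot be told apart.

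The human silencing hub (HUSH) is a complex of TASOR, MPP8 and periphilin, the product of Pphln1. TASOR is the scaffold that holds the others, MPP8 carries a chromodomain that binds methylated lysine 9 of histone H3, and periphilin binds RNA. The complex brings in the methyltransferase SETDB1, with its partner ATF7IP, and the chromatin compactor MORC2, and it silences young LINE-1 elements, retrocopies and other long intronless transcription units. In embryonic stem cells the same histone mark also covers germline genes and zinc finger clusters.

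Library totals were 17918770 to 20015735 estimated counts in MP8, 18898952 to 21112986 in Tas and 20392235 to 21962079 in WT. Levels are given as CPM, counts scaled to a common effective library size. Libraries of a group were close to each other, with a chi-square per degree of freedom of 2.2 to 2.61 within MP8 and 1.92 to 2.13 within Tas, against 34.2 to 38.3 for pairs of an MP8 and a Tas library. The defining markers of embryonic stem cells were present in every group. The 8 embryonic stem cell markers summed to 2686 to 2716 CPM in MP8, 2987 to 3002 CPM in Tas and 3118 to 3241 CPM in WT. In bulk RNA, fewer cells of a type and less RNA per cell cannot be told apart.

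The MP8 and Tas transcriptomes differed at many genes, mostly by less than 2-fold. By edgeR's quasi-likelihood test with Benjamini-Hochberg adjustment and a threshold of 0.05, 9447 genes were called, 56.1% of those tested. Of these, 4662 were higher in MP8 (27.7%) and 4785 were lower in MP8 (28.4%). The balance between directions depended on the scaling, as the share of calls that were higher in MP8 was 49.3% here and 57.2% when libraries were scaled by their totals alone. Changes of 2-fold or more were fewer, with 1030 genes higher in MP8 (6.12%) and 736 lower (4.37%). For 10664 genes, 63.3% of those tested, there was no overlap between the 3 MP8 and the 3 Tas libraries. The genes that changed 2-fold or more were of low level, with a median of 1.77 CPM for those higher in MP8 and 2.13 CPM for those lower, against 15.2 CPM over all genes tested. Annotated protein-coding genes made up 81.6% of those higher and 80.4% of those lower, against 85.3% of all genes tested.

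**Figure D1:**
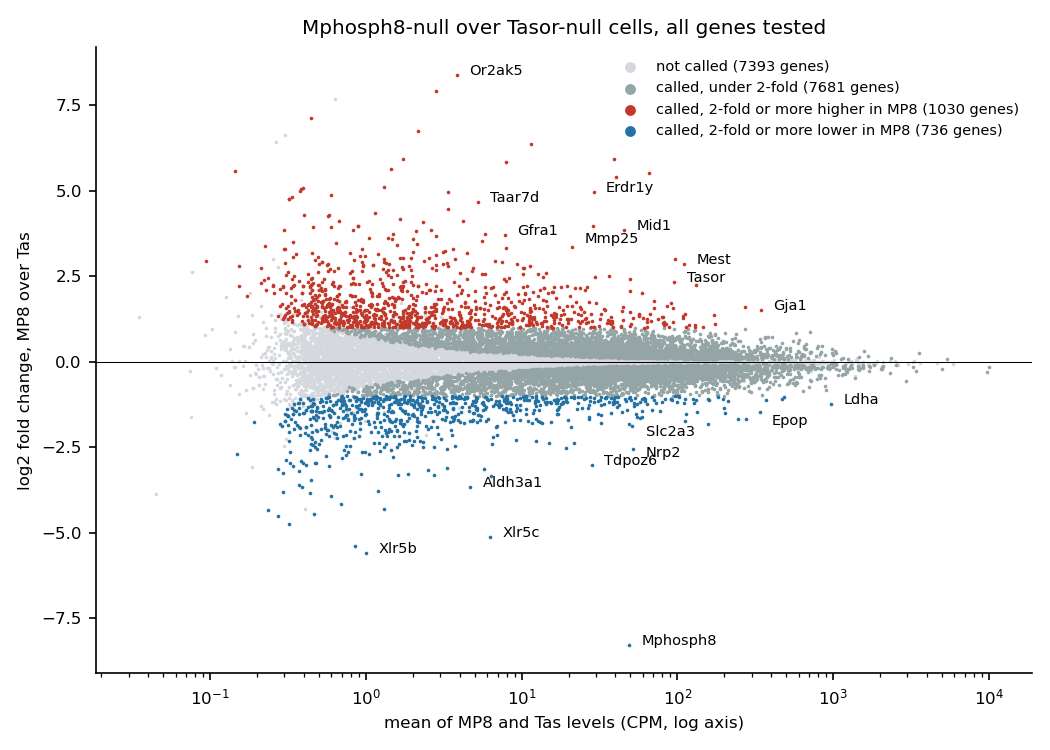
Log2 fold change of MP8 over Tas against the mean level of each gene (CPM, log axis), with 1 point for each of the 16840 genes tested. The 1030 red genes were called and at least 2-fold higher in MP8 and the 736 blue genes at least 2-fold lower. Mphosph8 stands alone at the bottom, and most genes above 100 CPM lie within 2-fold.

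The number of genes with a small difference was counted from intervals, since a p above the threshold does not show that the lines are alike. For 8750 genes (52.0%) the whole 95% interval of the fitted change lay within 1.5-fold in either direction, and 4489 of these were also called, so their differences were detected but small. Of the 7393 genes not called, 4261 had such an interval and 3132 had one that reached beyond 1.5-fold, so a difference of that size was not excluded. The overview plot of change against level shows where those genes lie, at the low end of the axis where the fan of uncalled genes is widest.

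The HUSH genes came first because they check the labels. Mphosph8 (ENSMUSG00000079184) was at 0.705, 0.165 and 0.0494 CPM in MP8, against 100, 94.2 and 97.8 CPM in Tas, and WT averaged 113 ± 3.23 CPM (SD, n = 3). The transcript was close to absent in the MP8 libraries and near the WT level in the Tas libraries. The log2 fold change was -8.27 ± 0.16 (SE, edgeR adjusted p = 1.42e-17), and it was -9.79 without MP8 replicate 1, the library with most of the remaining reads. Tasor (ENSMUSG00000040651) was at 154, 164 and 160 CPM in MP8, against 30.7, 31.8 and 33.1 CPM in Tas, and WT averaged 126 ± 2.7 CPM. Tas libraries thus kept a part of the Tasor reads (where they lie in the gene cannot be read from gene totals), while MP8 libraries stood above WT, and the log2 fold change was 2.32 ± 0.05 (edgeR adjusted p = 4.98e-25).

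The other subunit and the partners differed by less. Pphln1, the gene of periphilin, averaged 85.7 ± 3.29 CPM in MP8 and 74.8 ± 1.2 CPM in Tas, a log2 fold change of 0.20 ± 0.05 (edgeR adjusted p = 0.000581). Atf7ip2, a chromosome 16 paralogue of Atf7ip, was higher in MP8 than in Tas by 0.50 ± 0.06 on the log2 scale. Both null groups stood above WT, at 81 ± 3.37 CPM in MP8, 57.2 ± 2.92 CPM in Tas and 35.1 ± 0.852 CPM in WT. Atf7ip itself was lower in MP8 by 0.27 ± 0.04, with 119 ± 2.15 CPM in MP8 and 143 ± 2.29 CPM in Tas, and Setdb1 was lower with a log2 fold change of -0.14 ± 0.03. Trim28, the corepressor that links zinc finger proteins to SETDB1, averaged 1545 ± 33.8 CPM in MP8 and 1874 ± 28.7 CPM in Tas (log2 fold change -0.28 ± 0.03). Morc2a was called at 0.09 ± 0.03, a call that was lost under several settings. On log2(TPM + 0.1) values tested with limma, the calls of Atf7ip2, Atf7ip and Setdb1 were lost too. Of 14 tested HUSH and partner genes, 6 were higher and 6 lower in MP8 (42.9% each), with a median log2 fold change of 0.02. Over all genes tested, 27.7% were higher and 28.4% lower, and the median was 0.00.

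Genes that earlier results from these libraries had placed above WT in both null lines were compared by level, and the members of this list are not independent evidence of a shared direction. Prkg1, a cyclic GMP-dependent kinase gene on chromosome 19, was at 72.6, 75.9 and 78.5 CPM in MP8, against 72, 67.9 and 70.5 CPM in Tas, and WT averaged 2.83 ± 0.475 CPM. D1Pas1, an intronless germline copy of Ddx3x, was at 102, 103 and 99.1 CPM in MP8, against 106, 105 and 107 CPM in Tas, and WT averaged 12.8 ± 0.414 CPM. Both null groups stood far above WT at these genes and near each other. The 95% interval of the log2 fold change ran from 0.01 to 0.21 for Prkg1 and from -0.14 to 0.02 for D1Pas1, and neither was called (edgeR adjusted p = 0.0611 and 0.169), although Prkg1 was called under 6 of 17 other settings. D1Pas1 shares sequence with its parent gene, so its reads are uncertain.

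Other members of that list reached different heights in the null lines. Cd36, a fatty acid transporter, was at 64.5, 72.3 and 68.1 CPM in MP8, against 37.7, 37.4 and 40.1 CPM in Tas, and WT averaged 1.85 ± 0.747 CPM. The groups did not overlap, and the log2 fold change was 0.83 ± 0.11 (edgeR adjusted p = 2.59e-05). Zfp229, a zinc finger gene, was at 87.5, 92.7 and 89 CPM in MP8, against 37.9, 36.7 and 37.6 CPM in Tas, and WT averaged 15.7 ± 0.28 CPM (2.4-fold higher in MP8, edgeR adjusted p = 7e-20). Both genes were therefore above WT in each null line and higher in MP8. Rhoj, a small GTPase of endothelial cells, was 1.45-fold higher in MP8, where it averaged 27.6 ± 1.91 CPM, and Cd80, a costimulatory receptor ligand, gave 11.8 ± 0.673 CPM in MP8 and 4.37 ± 0.138 CPM in Tas. Of the 17 members, all tested, 11 were higher (64.7%) and 2 lower (11.8%) in MP8, with a median log2 fold change of 0.38. The shares over all genes tested were 27.7% and 28.4%. Cox7b2 and Ndufb11b, retrocopy-type genes of the oxidative phosphorylation list, followed the same order of levels, with 18.3 ± 0.663 and 24.9 ± 0.807 CPM in MP8, 13.3 ± 0.379 and 10.4 ± 0.206 CPM in Tas, and 0.333 ± 0.013 and 0.715 ± 0.335 CPM in WT.

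The Xlr genes, an X-linked multicopy family related to a synaptonemal complex protein, split between the null lines. Xlr5c was at 0.352, 0.385 and 0.296 CPM in MP8, against 12, 13 and 11.7 CPM in Tas, and the WT libraries held at most 0.0496 CPM. Tas libraries were therefore all above MP8 libraries, which themselves were above WT, and the log2 fold change of MP8 over Tas was -5.13 ± 0.24 (edgeR adjusted p = 1.87e-17). Xlr5b had 2 counts over the 3 MP8 libraries and 117 counts over the 3 Tas libraries, a ratio of Tas over MP8 of 57.4 with an exact counting interval of 15.5 to 479. Xlr5a went the other way, with 47.3, 49.2 and 51 CPM in MP8, against 38.1, 32.8 and 38.3 CPM in Tas (log2 fold change 0.44 ± 0.07, edgeR adjusted p = 1.59e-06).

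In the Xlr3 subfamily the differences were small. Xlr3b averaged 50.5 ± 1.58 CPM in MP8 and 52.6 ± 0.88 CPM in Tas and was not called, with an interval from -0.17 to 0.05. Xlr3c was lower in MP8 with a log2 fold change of -0.30 ± 0.06, and Xlr3a was called higher by 0.21 ± 0.07, a call that was lost without MP8 replicate 1 or Tas replicate 2. On the TPM scale the call of Xlr3c was lost as well. Xlr4a, Xlr4b and Xlr4c fell below Tas with log2 fold changes of -1.25 ± 0.28, -1.95 ± 0.26 and -1.17 ± 0.27. Of 9 tested Xlr genes, 2 were higher (22.2%) and 6 lower (66.7%) in MP8, against 27.7% and 28.4% of all genes tested. The genes are close copies, so the assignment of reads among them is uncertain. The upstream sequences of the Xlr5 genes are printed because these 3 genes differed in direction, and they are not transcribed sequence. Each line gives the 250 bases before an annotated start, from RefSeq on GRCm38.p6, 5′ to 3′ on the gene's strand, and capitals mark the longest run shared by Xlr5a and Xlr5b.
Xlr5a (chrX:73117703-73117952, minus strand): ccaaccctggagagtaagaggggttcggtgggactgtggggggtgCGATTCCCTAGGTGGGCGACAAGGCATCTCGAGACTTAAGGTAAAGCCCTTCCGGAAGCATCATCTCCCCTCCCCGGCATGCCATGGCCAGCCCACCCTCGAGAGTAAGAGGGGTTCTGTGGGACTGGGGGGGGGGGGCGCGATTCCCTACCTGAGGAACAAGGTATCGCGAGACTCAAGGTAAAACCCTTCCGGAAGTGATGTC
Xlr5b (chrX:73148591-73148840, plus strand): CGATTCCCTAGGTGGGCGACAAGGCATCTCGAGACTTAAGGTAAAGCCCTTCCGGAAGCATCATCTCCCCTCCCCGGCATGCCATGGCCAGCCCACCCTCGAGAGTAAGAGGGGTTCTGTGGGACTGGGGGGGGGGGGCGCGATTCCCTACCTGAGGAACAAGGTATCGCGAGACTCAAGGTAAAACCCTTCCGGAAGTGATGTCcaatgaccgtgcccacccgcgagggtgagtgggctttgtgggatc
Xlr5c (chrX:73290516-73290765, minus strand): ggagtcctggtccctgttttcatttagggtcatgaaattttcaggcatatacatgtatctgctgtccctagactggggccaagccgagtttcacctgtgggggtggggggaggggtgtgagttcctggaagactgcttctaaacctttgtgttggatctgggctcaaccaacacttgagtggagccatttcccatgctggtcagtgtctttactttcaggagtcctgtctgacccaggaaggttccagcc
The run common to Xlr5a and Xlr5b was 205 bases long, from base 46 of the window of Xlr5a and base 1 of that of Xlr5b. Xlr5c shared no run longer than 9 bases with Xlr5a or 8 bases with Xlr5b in these windows. Of these 3 genes, Xlr5a was higher in MP8 and Xlr5b and Xlr5c were lower.

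**Figure D2:**
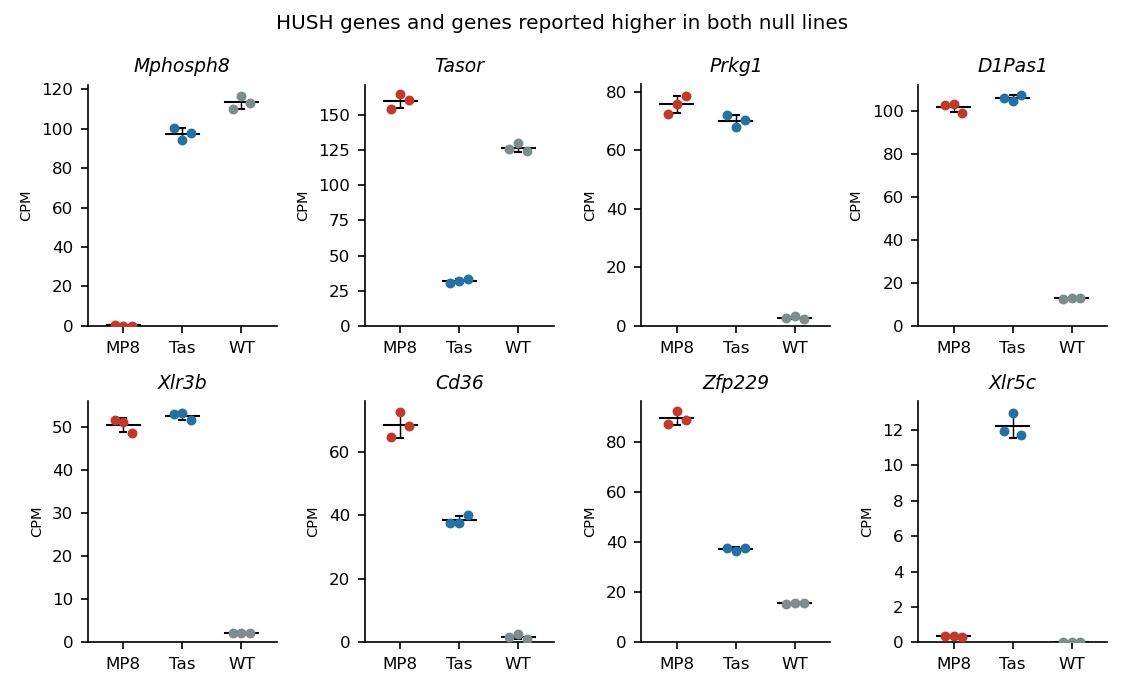
Levels of 8 genes (CPM) in each of 3 libraries of MP8, Tas and WT, with 1 point for each library, a line at the mean and a bar of 1 SD. Prkg1, D1Pas1 and Xlr3b stand at about the same height in MP8 and Tas, Cd36 and Zfp229 are higher in MP8, and Xlr5c averages 12.2 CPM in Tas and stays under 1 CPM in MP8 and WT.

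The genes with the largest differences were of several kinds. Or2ak5, an olfactory receptor, had 445 counts over the MP8 libraries and 1 count over the Tas libraries, a ratio of 454 with an exact counting interval of 81.1 to 17970. Taar7d, a trace amine receptor, was at 9.91, 10.8 and 9.58 CPM in MP8, against 0.325, 0.539 and 0.291 CPM in Tas, and WT averaged 0.204 ± 0.065 CPM (log2 fold change 4.68 ± 0.23, edgeR adjusted p = 4.12e-17). Or14a260 averaged 14.5 ± 0.489 CPM in MP8 and 1.45 ± 0.282 CPM in Tas, and WT averaged 0.611 ± 0.242 CPM. Of 1170 listed olfactory and trace amine receptor genes 38 were tested, and of these 7 were higher (18.4%, against 27.7% of all genes tested) and 2 lower in MP8, and 29 were not called. Reads of such receptors are hard to assign among near-identical copies.

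Fthl17b and Fthl17c, X-linked ferritin-like genes of the germline, averaged 6.47 ± 0.431 and 7.93 ± 0.884 CPM in MP8, against 0.291 ± 0.125 and 0.452 ± 0.0811 CPM in Tas. Fthl17f of the same cluster, chosen after its values were seen, gave a log2 fold change of 2.92 ± 0.32, while Fthl17a was not called. Zfy1, a Y-linked zinc finger gene, averaged 6.54 ± 1.17 CPM in MP8 and 0.663 ± 0.178 CPM in Tas. Mid1, a ubiquitin ligase gene that spans the pseudoautosomal boundary, was at 86.1, 83.3 and 85.6 CPM in MP8, against 6.06, 6.96 and 4.52 CPM in Tas, and WT averaged 110 ± 2.93 CPM. Erdr1y gave 56.2 ± 3.55 CPM in MP8 and 1.78 ± 0.243 CPM in Tas, and WT averaged 65 ± 9.98 CPM. At these last 2 genes Tas was the group away from WT. Both have near-identical copies or repeats at the pseudoautosomal region, and on log2(TPM + 0.1) values the log2 fold change of Erdr1y was 1.18 in place of 4.97, so their sizes are uncertain. Ankrd36 had the same pattern, with 10.9 ± 0.319 CPM in MP8, 0.805 ± 0.148 CPM in Tas and 12.9 ± 0.89 CPM in WT.

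Among the genes lower in MP8, Nrp2, a semaphorin and VEGF coreceptor, was at 14.8, 15.3 and 15.4 CPM in MP8, against 91.1, 86.9 and 86.5 CPM in Tas, and WT averaged 85.1 ± 3.35 CPM (log2 fold change -2.54 ± 0.05, edgeR adjusted p = 3.19e-26). MP8 stood alone here, and Tas lay near WT. As3mt, an arsenic methyltransferase gene on chromosome 19, and A2m, a protease inhibitor, were also near WT in Tas, with 0.974 ± 0.205 and 1.16 ± 0.298 CPM in MP8, against 5.7 ± 0.57 and 6.34 ± 0.238 CPM in Tas. Rpph1, the RNA of RNase P, averaged 0.503 ± 0.139 CPM in MP8 and 5.01 ± 0.438 CPM in Tas. Tdpoz6, of a multicopy germline family, had 5.08, 7.42 and 6.17 CPM in MP8, against 51.6, 51.3 and 48.3 CPM in Tas, and WT averaged 7.47 ± 0.138 CPM. There, Tas was the group away from WT.

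Some genes moved to opposite sides of WT, with all 3 WT libraries between the null groups. Gfra1, a coreceptor gene for GDNF on chromosome 19, was at 14.7, 13.7 and 15.2 CPM in MP8, against 1.24, 1.18 and 0.923 CPM in Tas, and WT averaged 5.04 ± 0.359 CPM. Its log2 fold change was 3.70 ± 0.15 for MP8 over Tas (edgeR adjusted p = 1.43e-18), and, from comparisons that share the WT libraries, 1.53 ± 0.12 for MP8 over WT and -2.17 ± 0.18 for Tas over WT. Gfra3, a coreceptor of the same family, had 5.25 ± 0.0269 CPM in MP8, 0.413 ± 0.253 CPM in Tas and 1.46 ± 0.236 CPM in WT. Mmp25, a membrane-bound matrix metalloproteinase, averaged 38.6 ± 2.12 CPM in MP8, 3.8 ± 0.382 CPM in Tas and 11 ± 1.04 CPM in WT. Slc40a1, the iron exporter ferroportin, and Ror1, a Wnt5a receptor, gave 19.7 ± 0.888 and 17.7 ± 0.463 CPM in MP8, against 2.82 ± 0.0156 and 2.66 ± 0.418 CPM in Tas.

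The opposite order was seen for other genes. Aldh3a1, an aldehyde dehydrogenase, was at 0.554, 0.66 and 0.839 CPM in MP8, against 8.06, 8.53 and 9.47 CPM in Tas, and WT averaged 3.79 ± 0.469 CPM (log2 fold change -3.65 ± 0.20, edgeR adjusted p = 5.49e-16). Mitf, a transcription factor of melanocytes, averaged 2.07 ± 0.522 CPM in MP8, 10.9 ± 1.29 CPM in Tas and 5.03 ± 0.285 CPM in WT. Aire, a regulator of thymic self-antigen expression, averaged 22 ± 1.33 CPM in MP8, 80.8 ± 0.493 CPM in Tas and 39.3 ± 1.81 CPM in WT. All 3 were below WT in MP8 and above it in Tas. Over the 1030 genes at least 2-fold higher in MP8, the median log2 fold change was 1.04 for MP8 over WT and -0.57 for Tas over WT. Over the 736 genes at least 2-fold lower, it was -1.01 for MP8 over WT and 0.40 for Tas over WT. These medians describe genes chosen by the difference between the null groups.

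Genes of naive pluripotency, the state that resembles the inner cell mass, were mostly lower in MP8 than in Tas. Of 25 tested members, 18 were lower, 3 higher and 4 not called, with a median log2 fold change of -0.44, against 28.4% lower, 27.7% higher and a median of 0.00 over all genes tested. Tfcp2l1, a transcription factor of naive self-renewal, was at 22.5, 21.3 and 21.1 CPM in MP8, against 73.5, 78.1 and 77 CPM in Tas, and WT averaged 127 ± 8.81 CPM. The groups did not overlap, and the log2 fold change was -1.81 ± 0.05 (edgeR adjusted p = 5.14e-22). Tcl1, a cofactor of AKT kinase, was lower with a log2 fold change of -2.31 ± 0.12, Prdm14, a repressor of FGF signalling genes, averaged 2.81 ± 0.44 CPM in MP8 and 6.76 ± 0.696 CPM in Tas, and Esrrb, an orphan nuclear receptor, was lower with -0.80 ± 0.03. Klf2, a Kruppel-like factor, was at 309, 292 and 299 CPM in MP8, against 642, 653 and 631 CPM in Tas, and WT averaged 449 ± 24 CPM, so WT lay between the null groups. Nr5a2, a nuclear receptor that can activate Pou5f1, averaged 49 ± 0.382 CPM in MP8 and 110 ± 1.15 CPM in Tas, and WT averaged 43.8 ± 0.982 CPM, so here Tas was the group away from WT.

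Klf4, another Kruppel-like factor, was not called, with 5.64 ± 0.294 CPM in MP8, 4.63 ± 0.27 CPM in Tas and 35.2 ± 1.66 CPM in WT. Its interval ran from 0.01 to 0.55 and the edgeR adjusted p was 0.0685. Nanog had 130 ± 5.62 CPM in MP8 and 138 ± 3.76 CPM in Tas (edgeR adjusted p = 0.0466), and its call was lost under 11 of 17 other settings. Gbx2, Tbx3 and Klf5 went against the list, Klf5 with a log2 fold change of 0.26 ± 0.05. Gbx2, a homeobox factor downstream of LIF, averaged 106 ± 1.85 CPM in MP8, 35.3 ± 1.78 CPM in Tas and 56.6 ± 0.691 CPM in WT (log2 fold change 1.58 ± 0.05, edgeR adjusted p = 6.9e-22). Among core factors, Pou5f1 and Sox2 were lower in MP8 with log2 fold changes of -0.11 ± 0.03 and -0.20 ± 0.03, and the call of Pou5f1 was lost with library totals or TPM. Klf2 and Zfp42 are on chromosome 8, whose genes were lower as a whole, and among the 23 members elsewhere 16 were lower and the median was -0.24.

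Genes of the formative and primed states, through which cells leave naive pluripotency, were mostly higher in MP8 than in Tas. Of 19 tested members, 13 were higher (68.4%), 4 lower (21.05%) and 2 not called, with a median log2 fold change of 0.43. The shares over all genes tested were 27.7% and 28.4%. From comparisons that share the WT libraries, the list medians were 0.04 for MP8 over WT and -0.39 for Tas over WT. As a list, these genes thus lay near WT in MP8 and below it in Tas. Pou3f1, a POU factor of the epiblast, was at 63.4, 61.6 and 62 CPM in MP8, against 11.5, 11.4 and 10.1 CPM in Tas, and WT averaged 51.3 ± 5.95 CPM. Lef1, a Wnt effector, was at 11.6, 11.9 and 13.2 CPM in MP8, against 3.14, 2.74 and 3.35 CPM in Tas, and WT averaged 11.9 ± 0.263 CPM. At both genes MP8 lay near WT and Tas lay below it, with log2 fold changes of MP8 over Tas of 2.51 ± 0.08 and 1.99 ± 0.12. Fgf5, a growth factor of the postimplantation epiblast, had 201 counts over the MP8 libraries and 3 counts over the Tas libraries, a ratio of 68.3 with an exact counting interval of 23.1 to 334. Sall2 and Grhl2 were higher by 0.91 ± 0.06 and 1.11 ± 0.06, whereas Otx2, a homeobox factor of the formative state, was lower with a log2 fold change of -0.39 ± 0.10.

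Targets and feedback inhibitors of FGF and ERK signalling were higher in MP8 for 10 of 18 tested members (55.6%) and lower for 3 (16.7%). Their median was 0.24. Dusp6, a phosphatase of ERK, was at 113, 117 and 118 CPM in MP8, against 48.9, 46.1 and 45.1 CPM in Tas, and WT averaged 52.7 ± 0.173 CPM. MP8 was the group away from WT, and the log2 fold change was 1.31 ± 0.04 (edgeR adjusted p = 2.84e-21). Spred1 and Spry2, inhibitors of the same pathway, were higher by 0.80 ± 0.04 and 0.57 ± 0.06, while the ETS factors Etv4 and Etv5 were lower with log2 fold changes of -0.31 ± 0.05 and -0.16 ± 0.03. Fgf4, the growth factor that embryonic stem cells make themselves, averaged 124 ± 5.81 CPM in MP8 and 243 ± 7.42 CPM in Tas. Of 18 tested genes of Nodal, activin and BMP signalling, 7 were higher and 7 lower (38.9% each, against 27.7% and 28.4% of all genes). The ligand gene Bmp4 averaged 1.08 ± 0.201 CPM in MP8, 4.71 ± 0.236 CPM in Tas and 10.1 ± 0.635 CPM in WT, and Id1, a target of BMP signalling, averaged 69.7 ± 1.61 CPM in MP8, 136 ± 2.59 CPM in Tas and 42.2 ± 0.415 CPM in WT. Nodal and its inhibitor gene Lefty1 were higher in MP8 by 0.34 ± 0.04 and 0.57 ± 0.04. Of the 8 embryonic stem cell markers, 6 were lower in MP8 and 1 higher. They share members with the naive and core pluripotency lists, such as Zfp42 and Lin28a, so they are not separate evidence. The part of these markers in the results was not tested.

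**Figure D3:**
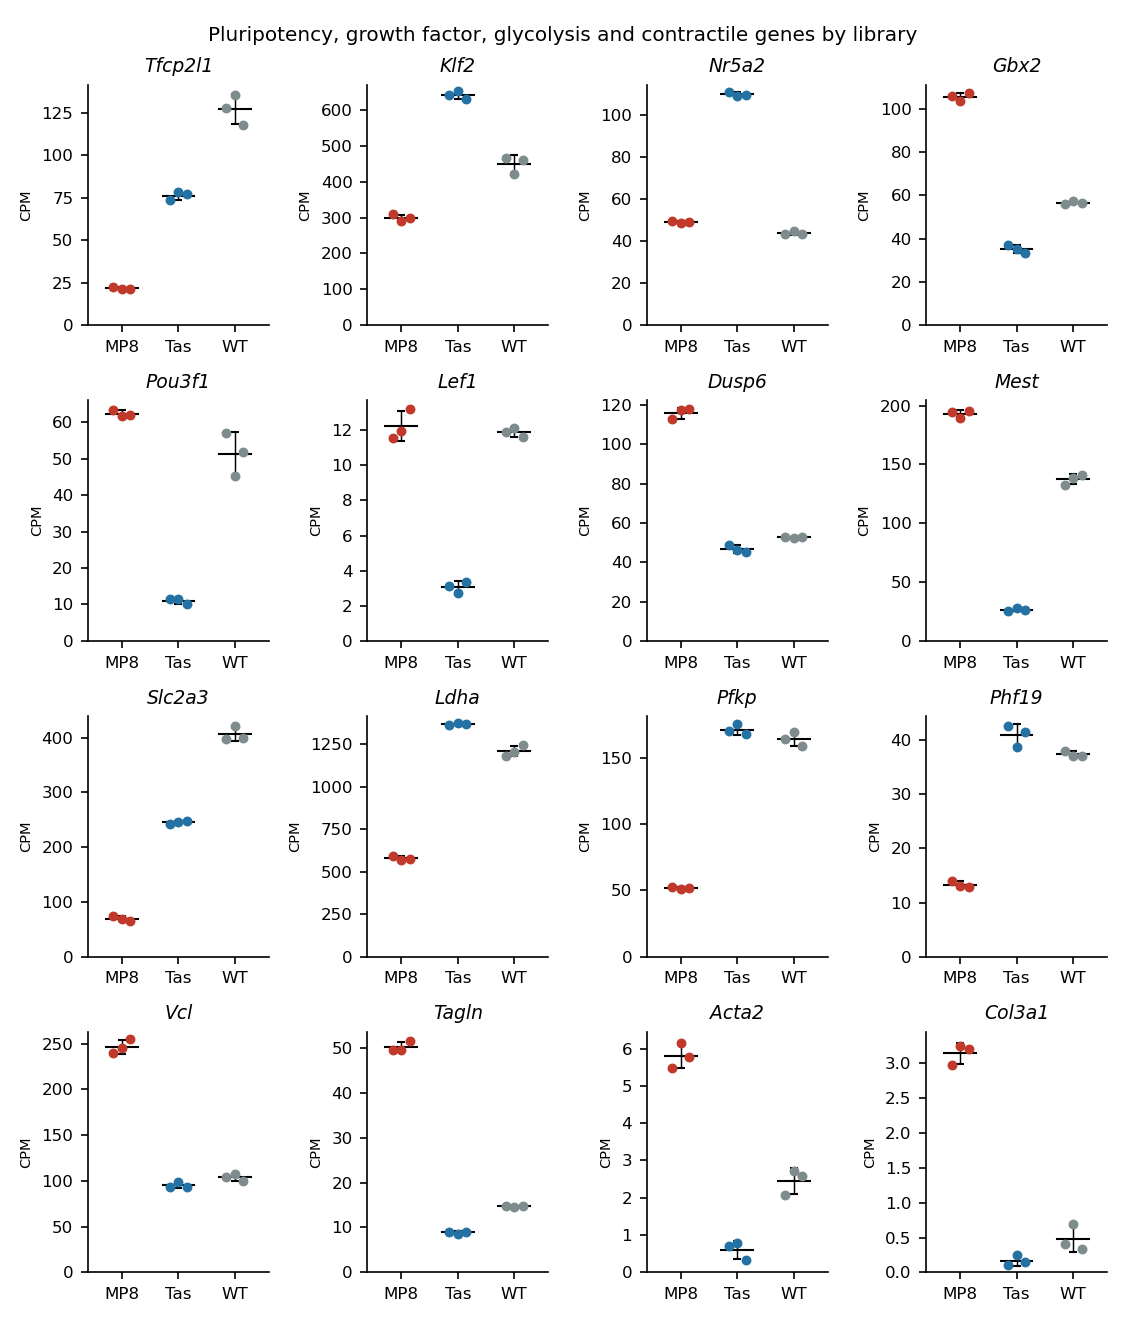
Levels of 16 genes (CPM) in each of 3 libraries of MP8, Tas and WT, with 1 point for each library, a line at the mean and a bar of 1 SD. In each panel the MP8 and Tas libraries do not overlap. WT lies nearer to MP8 for Lef1 and Nr5a2, nearer to Tas for Pfkp, Phf19, Dusp6 and Vcl, and apart from both for Tfcp2l1, Mest and Slc2a3.

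Glycolysis and hypoxia genes were lower in MP8 almost throughout. Of 29 tested members, 24 were lower (82.8%) and 1 was higher (3.45%), and the median log2 fold change was -0.59. The shares over all genes tested were 28.4% lower and 27.7% higher. Among the 26 members outside chromosomes 8 and 19, 21 were lower and 1 was higher. Slc2a3, a glucose transporter, was at 73.7, 69.4 and 65.9 CPM in MP8, against 242, 246 and 248 CPM in Tas, and WT averaged 407 ± 13.1 CPM. Pfkp, a phosphofructokinase, was at 52.7, 50.7 and 51.8 CPM in MP8, against 170, 175 and 168 CPM in Tas, and WT averaged 164 ± 5.1 CPM. Ldha, lactate dehydrogenase A, was at 595, 570 and 575 CPM in MP8, against 1365, 1374 and 1371 CPM in Tas, and WT averaged 1210 ± 31.3 CPM. No MP8 library reached any Tas library at these 3 genes, and the log2 fold changes were -1.82 ± 0.04, -1.72 ± 0.04 and -1.24 ± 0.03 (edgeR adjusted p = 7.69e-26, 1.55e-24 and 2.8e-24). Bnip3, a mitophagy receptor, and Ndrg1, both known to be induced in hypoxia, were lower with -1.08 ± 0.06 and -1.55 ± 0.06. Slc2a1, the main glucose transporter gene, and Pfkm, another phosphofructokinase gene, were not called, with intervals from -0.11 to 0.03 and from -0.07 to 0.11. Over the list, the median was -0.79 for MP8 over WT and -0.01 for Tas over WT, from comparisons that share the WT libraries.

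Upstream sequences of Ldha and Pfkp are shown because both carry the short core of hypoxia response elements and both were lower in MP8 by more than the spread between libraries. The windows hold the 250 bases before an annotated start (RefSeq, GRCm38.p6, 5′ to 3′ on the gene's strand), and capitals mark ACGTG or GCGTG on either strand. ACGTG overlaps the E-box letters CACGTG.
Ldha (chr7:46845554-46845803, plus strand): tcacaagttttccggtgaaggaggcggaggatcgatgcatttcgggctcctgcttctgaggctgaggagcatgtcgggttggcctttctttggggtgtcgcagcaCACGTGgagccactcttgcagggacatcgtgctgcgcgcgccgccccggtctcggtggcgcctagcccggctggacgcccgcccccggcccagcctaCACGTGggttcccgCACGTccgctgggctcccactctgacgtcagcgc
Pfkp (chr13:6648772-6649021, minus strand): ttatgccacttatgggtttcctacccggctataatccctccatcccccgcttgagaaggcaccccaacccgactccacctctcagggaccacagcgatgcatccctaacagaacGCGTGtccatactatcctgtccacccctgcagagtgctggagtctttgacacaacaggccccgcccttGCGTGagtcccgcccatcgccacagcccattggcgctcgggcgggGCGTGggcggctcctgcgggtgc
Either motif was found in 31 of 39 windows of the list, which came from 26 of its 28 symbols, and in 38.6% of all 32851 promoter windows. The window printed for each gene is the first that holds a match. The list was named for hypoxia, so its share does not bear on the difference between MP8 and Tas. A match is a description of the letters, and binding was not measured.

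Nuclear genes of oxidative phosphorylation and ribosomal protein genes showed smaller differences in the same direction. Of 84 tested nuclear genes of oxidative phosphorylation, 59 were lower (70.2%) and 4 higher (4.76%) in MP8, with a median of -0.21. The shares over all genes tested were 28.4% lower and 27.7% higher. Ndufv1, a complex I subunit, averaged 78.5 ± 0.475 CPM in MP8 and 135 ± 2.38 CPM in Tas, and Cox8a, a complex IV subunit, 80.8 ± 3.15 CPM in MP8 and 134 ± 3.77 CPM in Tas. Both are on chromosome 19, and outside chromosomes 8 and 19 the list kept 52 lower and 4 higher of 77. Of 15 tested transcripts encoded in mitochondria, 3 were higher and 3 lower. Ribosomal protein genes were lower for 47 of 83 tested members (56.6%) and higher for 5 (6.02%), with a median of -0.12. Only 26 were lower when libraries were scaled by totals and 20 on the TPM scale. Rpl24, on chromosome 16, went against the list, with 751 ± 2.96 CPM in MP8, 541 ± 3.83 CPM in Tas and 746 ± 31.9 CPM in WT. Of 29 tested genes of cholesterol and fatty acid synthesis, 7 were higher (24.1%) and 11 lower (37.9%), with a median of -0.03. Of the 24 outside chromosomes 8 and 19, 7 were higher and 7 lower. Scd2, a fatty acid desaturase gene on chromosome 19, averaged 670 ± 4.56 CPM in MP8 and 1097 ± 10.8 CPM in Tas.

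Contractile genes and targets of the factors SRF and YAP were mostly higher in MP8. Of 21 tested members, 16 were higher (76.2%) and 3 lower (14.3%), with a median log2 fold change of 0.70. The shares over all genes tested were 27.7% and 28.4%. Tagln, an actin-binding protein of smooth muscle, was at 49.5, 49.4 and 51.4 CPM in MP8, against 9.09, 8.62 and 8.98 CPM in Tas, and WT averaged 14.7 ± 0.156 CPM. Vcl, the focal adhesion protein vinculin, was at 239, 245 and 255 CPM in MP8, against 93.1, 98.7 and 93.4 CPM in Tas, and WT averaged 104 ± 3.86 CPM. MP8 stood above both other groups, with log2 fold changes over Tas of 2.49 ± 0.06 and 1.37 ± 0.04 (edgeR adjusted p = 2.04e-24 and 9e-22). Acta2, the smooth muscle actin gene on chromosome 19, averaged 5.81 ± 0.338 CPM in MP8, 0.609 ± 0.237 CPM in Tas and 2.46 ± 0.347 CPM in WT. Ccn2 and Ccn1, matricellular genes used as readouts of YAP, were higher by 1.08 ± 0.04 and 0.72 ± 0.05, and Srf itself by 0.70 ± 0.07. Axl, a receptor kinase, was lower, with a log2 fold change of -0.77.

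The 250 bases upstream of Vcl and Srf are shown because each holds a CArG box, the element that SRF binds. The windows are from RefSeq on GRCm38.p6, 5′ to 3′ on the gene's strand, and capitals mark the CArG box.
Vcl (chr14:20929148-20929397, plus strand): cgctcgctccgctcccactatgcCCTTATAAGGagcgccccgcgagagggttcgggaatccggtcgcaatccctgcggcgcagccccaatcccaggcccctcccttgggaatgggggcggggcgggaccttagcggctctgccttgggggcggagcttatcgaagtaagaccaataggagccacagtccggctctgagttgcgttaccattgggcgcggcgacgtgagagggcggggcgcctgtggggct
Srf (chr17:46556163-46556412, minus strand): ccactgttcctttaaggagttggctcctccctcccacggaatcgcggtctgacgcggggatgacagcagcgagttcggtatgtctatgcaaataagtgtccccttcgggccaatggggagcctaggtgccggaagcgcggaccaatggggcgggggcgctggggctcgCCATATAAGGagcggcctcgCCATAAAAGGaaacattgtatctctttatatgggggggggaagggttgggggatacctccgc
CArG boxes were found in 4 of 18 windows of the list, from 17 of its 22 symbols, and in 1.47% of all promoter windows, and the other 14 windows hold none in these 250 bases. The list was named for SRF targets, so its share does not bear on the difference between MP8 and Tas, and binding was not measured.

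Extracellular matrix and adhesion genes were higher in MP8 as well, most of them at low level. Of 44 listed collagen genes 36 were tested, and of these 23 were higher (63.9%) and 4 lower (11.1%), with a median of 0.62. The shares over all genes tested were 27.7% and 28.4%. Col3a1, a fibrillar collagen, was at 2.97, 3.24 and 3.21 CPM in MP8, against 0.108, 0.245 and 0.146 CPM in Tas, and WT averaged 0.479 ± 0.191 CPM. Col8a1 had 17 counts over the MP8 libraries and 0 over the Tas libraries, which makes it at least 5.78-fold higher against a floor of 3 counts over the group. Col17a1, a hemidesmosome collagen gene on chromosome 19, went the other way, with 1.83 ± 0.299 CPM in MP8, 6.21 ± 0.534 CPM in Tas and 1.95 ± 0.223 CPM in WT. At a minimum mean of 5 CPM the number of collagen genes called higher was 7.

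Of 44 listed cadherin and nonclustered protocadherin genes 32 were tested, and of these 20 were higher (62.5%) and 4 lower (12.5%). The shares over all genes tested were 27.7% and 28.4%. Pcdh17 was at 6.44, 6.6 and 6.86 CPM in MP8, against 0.649, 0.882 and 0.923 CPM in Tas, and WT averaged 0.929 ± 0.271 CPM. Fat4, a giant protocadherin, gave a log2 fold change of 5.12 ± 0.51, or 6.31 without Tas replicate 3, with 2.55 ± 0.548 CPM in MP8 and 0.0666 ± 0.0736 CPM in Tas. Cdh1, the E-cadherin gene of embryonic stem cells on chromosome 8, averaged 463 ± 17.2 CPM in MP8 and 480 ± 1.54 CPM in Tas and was not called (interval from -0.11 to 0.01). Cdh3, the P-cadherin gene on the same chromosome, was lower, at 35.8 ± 2.34 CPM in MP8 and 80 ± 1.51 CPM in Tas. Clustered protocadherins, whose isoforms share exons, were higher for 14 of 31 tested members (45.2%, of 58 listed) and lower for 0, with 17 not called. Fibroblast markers moved with these lists. Of 14 tested members of the fibroblast list, which shares Acta2, Tagln and collagens with them, 12 were higher (85.7%) and 1 lower (7.14%). The 11 defining markers of feeder fibroblasts summed to 28.8 to 32.9 CPM in MP8, 14.3 to 17.4 CPM in Tas and 18.7 to 18.9 CPM in WT. Twist2, Prrx1, Postn and Lum were below 1 CPM in both null groups, and none was at 0 in all libraries. The part of these markers in the results was not tested.

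Lineage genes differed in both directions, with more members higher than lower in MP8 in each of 4 short lists. The share called higher was above the 27.7% of all genes tested in each list, and lowest for mesendoderm, at 37.5% of 8 genes. Only the neuroectoderm list had a share called lower above the 28.4% of all genes, at 31.25%. With so few members, these 2 shares are not far from those of all genes. At a minimum mean of 5 CPM, the number of mesendoderm genes called higher was 0. Of 16 tested trophectoderm genes, 7 were higher and 2 lower, of 8 tested mesendoderm genes 3 were higher and 0 lower, and of 15 tested primitive endoderm genes 7 were higher and 3 lower. Krt8 and Krt18, keratins of simple epithelia, averaged 54.9 ± 0.647 and 37.8 ± 1.51 CPM in MP8, against 34.2 ± 1.01 and 22.7 ± 0.542 CPM in Tas. The 2 lower trophectoderm genes were Tead4 and Krt19. They averaged 10.5 ± 1.17 and 8.2 ± 1.25 CPM in MP8, against 23.4 ± 0.744 and 12.8 ± 1.15 CPM in Tas. Wnt3, a ligand that starts gastrulation, was at 4.13, 4.51 and 3.7 CPM in MP8, against 1.3, 0.882 and 0.728 CPM in Tas, and WT averaged 0.665 ± 0.026 CPM. Gata6, a primitive endoderm factor, averaged 0.976 ± 0.202 CPM in MP8 and 0.273 ± 0.118 CPM in Tas, whereas its relative Gata4 was not called. The 3 lower primitive endoderm genes were Sparc, Lamc1 and Col4a1, with log2 fold changes of -0.73 ± 0.03, -0.19 ± 0.04 and -0.14 ± 0.05. Sparc averaged 293 ± 5.42 CPM in MP8 and 485 ± 1.57 CPM in Tas. Of 16 tested neuroectoderm genes, 8 were higher and 5 lower. Olig2, a factor of oligodendrocyte precursors, was at 74.4, 74 and 73.7 CPM in MP8, against 28.5, 32.8 and 29.5 CPM in Tas, and WT averaged 49.8 ± 2.86 CPM. Pax3, a neural plate border factor, averaged 1.28 ± 0.281 CPM in MP8 and 0.0669 ± 0.0271 CPM in Tas. Stmn2, a microtubule regulator of neurons, was lower, at 126 ± 2.89 CPM in MP8 and 265 ± 3.46 CPM in Tas. The defining markers of primitive endoderm summed to 11.7 to 12.3 CPM in MP8, 6.22 to 6.62 CPM in Tas and 5.88 to 7.39 CPM in WT, and those of mesendoderm to 3.07 to 3.41 CPM in MP8, 1.41 to 1.72 CPM in Tas and 1.54 to 2.02 CPM in WT. Those of trophectoderm, mostly Krt8 and Krt18, summed to 99.9 to 104.2 CPM in MP8, 64.1 to 65.5 CPM in Tas and 90.2 to 93.5 CPM in WT, while Elf5 and Cdx2 were below 1 CPM in MP8 and Tas. Those of neuroectoderm summed to 197.8 to 203.8 CPM in MP8, 203.5 to 211.1 CPM in Tas and 193.1 to 198.6 CPM in WT. This sum hides changes in both directions, as 3 of the 5 neuroectoderm markers were higher in MP8 and 1 lower. Nes was at 75, 76.3 and 76.2 CPM in MP8, against 41.6, 44.5 and 42.8 CPM in Tas. Tubb3, on chromosome 8, was at 109, 103 and 111 CPM in MP8, against 148, 152 and 149 CPM in Tas. The part of these markers in the results was not tested either.

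Chromatin genes differed in both directions. Of 19 tested genes of DNA methylation, 11 were lower (57.9%) and 6 higher (31.6%), against 28.4% and 27.7% of all genes tested. The median was -0.46. Tet2, a methylcytosine dioxygenase, was at 30.9, 32.6 and 31.5 CPM in MP8, against 69.9, 75.9 and 74.1 CPM in Tas, and WT averaged 79.9 ± 7.93 CPM. Uhrf1, which recruits DNMT1 to replicating DNA, averaged 275 ± 3.64 CPM in MP8 and 482 ± 4.12 CPM in Tas, and Dnmt1 averaged 337 ± 11.3 CPM in MP8 and 437 ± 2.59 CPM in Tas. The de novo methyltransferase genes Dnmt3a and Dnmt3b were higher in MP8 by 0.19 ± 0.03 and 0.33 ± 0.03, while their cofactor gene Dnmt3l was lower with -0.52 ± 0.03. Dnmt1 and Uhrf1 were thus lower in MP8, and Dnmt3a and Dnmt3b higher.

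Of 27 tested Polycomb genes, 13 were lower (48.15%) and 8 higher (29.6%), against 28.4% and 27.7% of all genes tested. Epop and Phf19, accessory subunits of Polycomb repressive complex 2, had the largest falls. Phf19 was at 14, 13 and 12.9 CPM in MP8, against 42.6, 38.7 and 41.5 CPM in Tas, and WT averaged 37.4 ± 0.534 CPM. Epop averaged 178 ± 9.94 CPM in MP8, 497 ± 16.3 CPM in Tas and 353 ± 16.5 CPM in WT. The core subunits moved less, with Ezh2 lower at a log2 fold change of -0.18 ± 0.04 and Suz12 higher by 0.40 ± 0.04. Of 14 tested genes of histone H3 lysine 9 methyltransferases and HP1, 4 were higher and 4 lower (28.6% each, near the 27.7% and 28.4% of all genes tested), with Ehmt2 at -0.40 ± 0.04 and Suv39h1 at 0.35 ± 0.05.

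Imprinted genes were higher in MP8 for 21 of 38 tested members (55.3%) and lower for 7 (18.4%), with a median of 0.16. The shares over all genes tested were 27.7% and 28.4%. Mest, an imprinted hydrolase gene, was at 194, 189 and 195 CPM in MP8, against 25.8, 27.9 and 26.2 CPM in Tas, and WT averaged 137 ± 4.18 CPM. Tas stood far below both other groups, and the log2 fold change was 2.86 ± 0.05 (edgeR adjusted p = 1.78e-28). Igf2, a fetal growth factor, averaged 51.1 ± 2.3 CPM in MP8 and 22.3 ± 0.517 CPM in Tas, while H19, the noncoding RNA of the same locus, averaged 0.808 ± 0.133 CPM in MP8 and 1.78 ± 0.0166 CPM in Tas. Magel2 averaged 7.51 ± 0.777 CPM in MP8 and 1.4 ± 0.289 CPM in Tas, and Peg3 was not called, with an interval from -0.03 to 0.11. Zinc finger genes named Zfp were higher in MP8 more often than lower, with a median of 0.17 for numbers of 600 or more and for smaller numbers. Of 175 tested with numbers of 600 or more, 79 were higher (45.1%) and 22 lower (12.6%). Of 194 with smaller numbers, 83 were higher (42.8%) and 31 lower (16.0%). Zfp738 averaged 53.4 ± 0.983 CPM in MP8, 21.6 ± 0.805 CPM in Tas and 21.2 ± 0.557 CPM in WT, and Zfp112 went the other way, at 0.74 ± 0.233 CPM in MP8 and 3.69 ± 0.645 CPM in Tas. Many of these genes lie in clusters of similar copies.

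Growth and stress genes also separated the lines. Targets of p53 were higher in MP8 for 16 of 26 tested members (61.5%) and lower for 1 (3.85%), with a median of 0.30. Over all genes tested, 27.7% were higher and 28.4% lower. Mdm2, the ubiquitin ligase that limits p53, was at 174, 172 and 170 CPM in MP8, against 109, 109 and 107 CPM in Tas, and WT averaged 106 ± 3.56 CPM. Ccng1, cyclin G1, averaged 452 ± 17.2 CPM in MP8, 274 ± 3.23 CPM in Tas and 191 ± 1.53 CPM in WT, and Cdkn1a, the inhibitor p21, was higher by 0.38 ± 0.06. Cell cycle genes were lower in MP8 for 24 of 36 tested members (66.7%) and higher for 4 (11.1%), with a median of -0.25. Mcm5, a subunit of the replicative helicase on chromosome 8, averaged 317 ± 10.1 CPM in MP8 and 649 ± 11 CPM in Tas, and Ccnd1, cyclin D1, averaged 136 ± 3.1 CPM in MP8 and 216 ± 8.1 CPM in Tas. Cdkn1b, an inhibitor of the cycle, was also lower, and Rb1 was higher, with log2 fold changes of -0.88 ± 0.07 and 0.60 ± 0.06.

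Genes of the integrated stress response were lower in MP8 for 13 of 25 tested members and higher for 5. Those lower included the amino acid synthesis genes Psat1 and Aldh18a1, both on chromosome 19, with log2 fold changes of -0.87 ± 0.03 and -1.12 ± 0.04. Ddit3, which encodes the stress factor CHOP, and Slc7a11, a cystine transporter gene, went the other way, at 5.02 ± 0.647 and 10.8 ± 0.707 CPM in MP8, against 1.71 ± 0.0954 and 2.76 ± 0.661 CPM in Tas. Interferon response and antigen presentation genes were split, with 8 higher (33.3%) and 9 lower (37.5%) of 24 tested. Over all genes tested, 27.7% were higher and 28.4% lower. Oasl2, an interferon-induced gene, was at 4.98, 4.62 and 4.25 CPM in MP8, against 0.541, 0.833 and 0.68 CPM in Tas, and WT averaged 6.95 ± 0.213 CPM, so Tas was far below both. Irf9, a subunit of the interferon-activated factor ISGF3, averaged 5.09 ± 0.355 CPM in MP8, 11 ± 0.693 CPM in Tas and 10.3 ± 0.91 CPM in WT. Germline and meiosis genes were lower for 12 of 29 tested members (41.4%) and higher for 7 (24.1%). Piwil2, a PIWI protein gene, averaged 23.6 ± 0.749 CPM in MP8 and 58.8 ± 1.97 CPM in Tas, and Dazl, an RNA-binding protein gene of germ cells, 2.13 ± 0.399 CPM in MP8 and 0.658 ± 0.386 CPM in Tas. Glutathione S-transferase genes were lower for 11 of 21 (52.4%) and higher for 4 (19.05%). Gstp1, which is on chromosome 19 beside its close copies, was at 26.3 ± 0.253 CPM in MP8, 53.5 ± 1.07 CPM in Tas and 68.8 ± 3.57 CPM in WT.

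**Figure D4:**
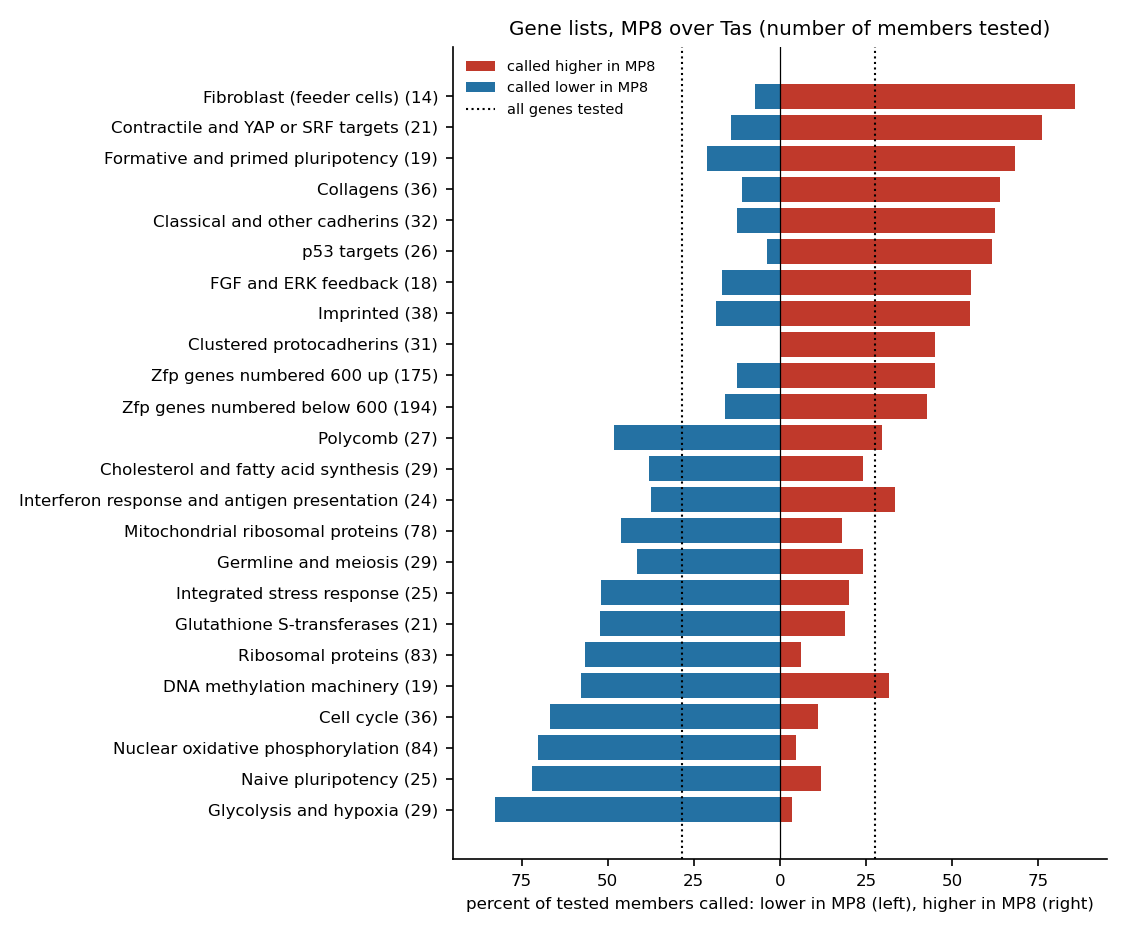
Percent of the tested members of 24 gene lists that were called higher (red, right) or lower (blue, left) in MP8 than in Tas, with the number of tested members after each name and dotted lines at the percentages of all genes tested (27.7% and 28.4%). Fibroblast and contractile genes reach furthest right and glycolysis genes furthest left among the lists drawn.

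The bar plot of gene lists sets each list against the dotted lines of all genes tested. The lists on its right, from fibroblast markers to zinc finger genes, had more members called higher than the 27.7% of all genes, and those on its left end, from ribosomal proteins to glycolysis, had more called lower than 28.4%. Between them, the Polycomb, cholesterol, interferon and germline lists had 29.6%, 24.1%, 33.3% and 24.1% called higher, near the 27.7% of all genes. Their shares called lower were 48.15%, 37.9%, 37.5% and 41.4%, above the 28.4% of all genes. The mitochondrial ribosomal protein, integrated stress response and glutathione S-transferase lists had more called lower (46.15%, 52.0% and 52.4%) and fewer called higher. At high level, the genes that changed 2-fold or more included Gja1, the gap junction protein connexin 43, with 507, 515 and 504 CPM in MP8, against 177, 179 and 177 CPM in Tas, and WT averaged 255 ± 9.15 CPM. Lrp2, the endocytic receptor megalin, averaged 411 ± 11.1 CPM in MP8, 134 ± 2.99 CPM in Tas and 100 ± 7.88 CPM in WT. Gldc, a glycine decarboxylase gene on chromosome 19, averaged 233 ± 7.52 CPM in MP8 and 505 ± 13.7 CPM in Tas. Usp26, an X-linked ubiquitin protease gene chosen after its values were seen, averaged 218 ± 11.1 CPM in MP8 and 46.3 ± 1.87 CPM in Tas.

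Genes on chromosomes 8 and 19 were shifted as a whole. Among genes that averaged 5 CPM or more, the median log2 fold change of MP8 over Tas was -0.37 on chromosome 8 (612 genes) and -0.36 on chromosome 19 (373 genes), while the medians of the 18 remaining chromosomes, leaving out the Y, ran from -0.09 on chromosome 14 to 0.10 on chromosome 16. On chromosome 8, 65.7% of these genes were called lower in MP8, and on chromosome 19 75.1%. From comparisons that share the WT libraries, the chromosome 8 medians were -0.08 for MP8 over WT and 0.35 for Tas over WT, and those of chromosome 19 were -0.09 and 0.26, so Tas was the group that stood away from WT. Of all tested genes on the 2 chromosomes, 792 of 1400 were lower in MP8 (56.6%) and 183 higher (13.1%). Without them, 4479 of 15440 genes were higher (29.0%) and 3993 lower (25.9%). On chromosome 16 the medians were 0.24 for MP8 over WT and 0.10 for Tas over WT, so both null groups stood above WT there. Of its 352 genes at 5 CPM or more, 48.3% were called higher in MP8 than in Tas and 20.45% lower.

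**Figure D5:**
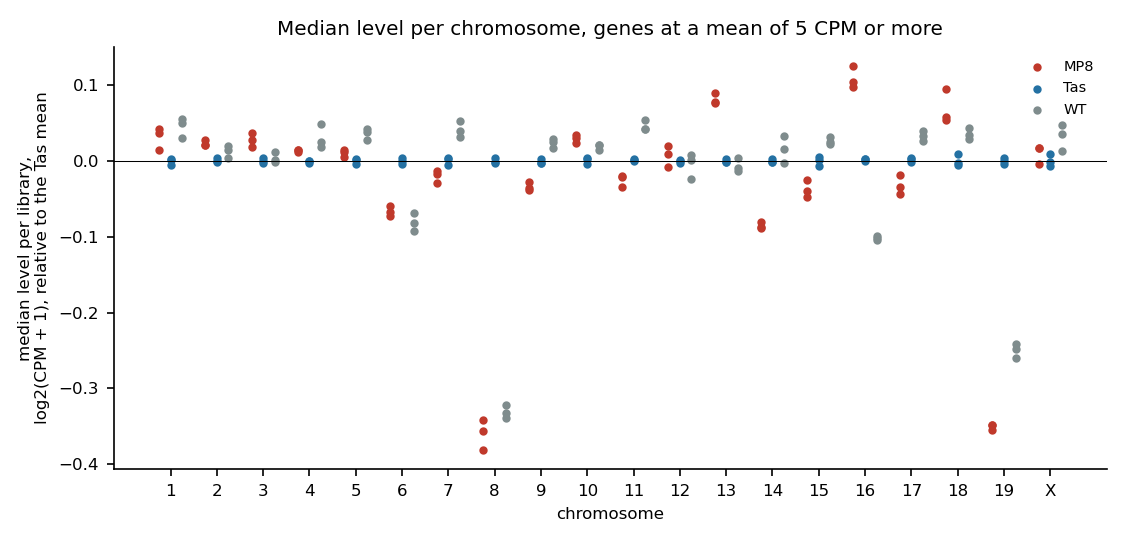
Median level of genes at a mean of 5 CPM or more for each library, as log2(CPM + 1) relative to the mean of the 3 Tas libraries, by chromosome (the Y, with 7 such genes, is left out). The MP8 and WT libraries lie below Tas on chromosomes 8 and 19, together on chromosome 8 and with MP8 below WT on chromosome 19. Elsewhere they lie within about 0.13 of Tas, and on chromosome 16 MP8 lies above Tas and WT below it.

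The plot by chromosome shows the spread of library medians, which was small beside the shift. On chromosome 8 the MP8 libraries had medians of -0.34, -0.38 and -0.36 relative to the Tas mean, and the WT libraries -0.32, -0.34 and -0.33. Sex-linked genes differed too. Ddx3y, a Y-linked RNA helicase gene, was at 30.1, 26.9 and 31.1 CPM in MP8, against 94.1, 84.5 and 89.9 CPM in Tas, and WT averaged 65.4 ± 1.57 CPM. Y-linked genes did not share a direction. Kdm5d, Uty and Eif2s3y were lower in MP8 with log2 fold changes of -1.14 ± 0.09, -0.60 ± 0.06 and -0.42 ± 0.05. Zfy1 and Erdr1y, given above, were higher, as was the Y-linked pseudogene Mid1-ps1, chosen after its values were seen, with 15.6 ± 2.52 CPM in MP8, 0.271 ± 0.0668 CPM in Tas and 21.4 ± 2.22 CPM in WT. Xist, the RNA that coats the inactive X, averaged 18.2 ± 0.692 CPM in MP8, 8.23 ± 0.521 CPM in Tas and 2.3 ± 0.657 CPM in WT. The median over X-linked genes was 0.00. The part of the chromosome-wide shifts in single-gene results on chromosomes 8, 16 and 19 was not tested.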

How the data were processed

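Total RNA of 12 libraries was grouped by the titles in the labels, and the 6 MP8 and Tas libraries were compared. Per the submitters' processing notes, the tools were FastQC, HISAT2 2.1.0, RSEM and DESeq 1.26.0 with GRCm39, with no role or order given. The deposited tables give expected counts, estimated by the authors per gene and not normalized, and TPM, per the file headers. Of counts above 0, 32.5% were not whole, so they were rounded. All 12 libraries entered 1 robust quasi-likelihood fit in edgeR 4.0.16 (R 4.3.3) after filterByExpr and TMM scaling, with 8 residual degrees of freedom. The contrast was MP8 minus Tas, adjusted by Benjamini-Hochberg over 16840 genes. Values are CPM, mean ± SD of 3 libraries, and log2 fold changes ± SE. Exact intervals and the floor of 3 counts cover counting error only, since the reads carry no molecular identifiers.

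Named genes were the HUSH genes, the 12 largest changes per direction whose libraries did not overlap and whose higher group averaged 5 CPM or more, up to 4 called members per direction of each of 44 lists and defining members that were not called, up to 8 genes per direction with WT between, members placed above WT in both null lines by earlier results, and the 5 most abundant 2-fold changes per direction. Genes named outside this rule were chosen after their values were seen. Gene models with no name of their own did not enter the ranking. The members, lists and rule were chosen with earlier results of these data known. Alternatives were run with RLE, upper quartile and total-count scaling, other filters, 6 libraries, a replicate block, a non-robust fit, DESeq2 1.42.0, limma 3.58.1 on log2(TPM + 0.1), and without chromosomes 8 and 19 or each library in turn. The replicate numbers did not pair the samples. Chromosomes were assigned by gene identifier from GENCODE on GRCm38, which matched 51933 genes, and no coordinates of the files' build were used.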

Additional observations from a re-analysis of the deposited data

How the results depend on the processing

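Between 7444 genes (limma on TPM) and 9777 genes (6 libraries in the fit) were called across the settings, against 9447, and DESeq2 called 8361 of 19939. Leaving out each library in turn gave 8673 to 8810 calls, 4220 to 4324 higher, 4453 to 4498 lower, 1771 to 1812 of 2-fold or more (1020 to 1079 higher, 724 to 767 lower), 8346 to 8469 genes with intervals within 1.5-fold and 810 to 825 calls in lists. With a filter at a mean of 5 CPM, 676 genes changed 2-fold or more, 385 higher and 291 lower, since fewer low genes were tested. The chromosome 8 median was -0.3481 under RLE scaling, -0.3156 under library totals, -0.3070 on the TPM scale and -0.3900 to -0.3676 without each library. The chromosome 19 median was -0.3424 under RLE, -0.3546 under upper quartile, -0.3100 under totals, -0.3766 with no filter, -0.3441 with the 5 CPM filter, -0.3452 with DESeq2, -0.2934 on the TPM scale and -0.3721 to -0.3543 without each library. The cause of these shifts was not tested, and none turned a direction. Same-numbered MP8 and Tas libraries had correlations of 0.021, -0.023 and 0.01, so the numbers do not pair them, and a replicate block gave 9262 calls.

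Of 326 genes taken by the ranked or listed parts of the rule and 31 others named in the text, 345 were called and 12 were not. Of these 357 genes, 55 lost the call without a change of direction under at least 1 of 17 settings. Another 5 were called only under another setting (Prkg1, Klf4, Cdh1, Peg3 and Fthl17a). The log2 fold change of 4 genes reversed, all on the TPM scale: Gata2 at -0.0731, Mov10l1 at 0.2588, Col4a1 at 0.1201 and Rhox7-ps2 at 0.0918. These 4 genes were not called on that scale. Counts in lists moved by over 1.5 times mainly with the 5 CPM filter, which left 6 fibroblast, 7 collagen, 11 cadherin, 8 clustered protocadherin, 3 trophectoderm, 0 mesendoderm, 5 neuroectoderm, 4 interferon and 4 olfactory or trace amine receptor genes higher, and 2 Xlr genes lower. Germline genes were then 4 higher and 7 lower, and glutathione S-transferases 2 higher and 6 lower. Under library totals, 6 naive and 12 cholesterol genes were higher and 26 ribosomal protein genes lower. On the TPM scale, 4 Polycomb genes were higher and 7 lower, and 20 ribosomal protein genes and 12 and 17 Zfp genes (numbers of 600 or more, and smaller) were lower. With 6 libraries in the fit, 4 trophectoderm genes were higher. The cause was not tested beyond the smaller number of genes under the filter.

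TPM values with a pseudocount of 0.1 also gave smaller changes for low genes. The log2 fold change was 3.61 for Taar7d, 3.10 for Ankrd36, 3.23 for Mid1, -4.42 for Xlr5c, 2.90 for Col3a1, 2.14 for Pcdh17, 1.51 for Fat4, 0.99 for Gata6 and 2.30 for Pax3. The median SE of the log2 fold change was 0.0887 over all genes tested.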
